A study of Mus musculus with 12 samples.

Results

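Most endothelial nuclei of the mouse liver come from the sinusoids, and the authors' clustering placed these in a single large cluster, cluster 3. The nuclei described here are the other ones: all nuclei that the authors annotated as endothelial in the Liver and Cell Suspension samples and that lay in any deposited cluster except cluster 3. There were 548 of them, out of 3598 endothelial nuclei in those samples and 53467 nuclei in the series, and they fell into 2 clusters, cluster 24 with 293 nuclei and cluster 26 with 255. The 3050 endothelial nuclei of cluster 3 from the same samples served as the comparison. Cultured Primary Hepatocytes held 76 nuclei under the same endothelial annotation, 1 of them outside cluster 3, and were not part of the comparison. The paper also describes dedifferentiated endothelial cells in these cultures as a separate group, so 76 is not the number of endothelial nuclei there.

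The samples came from 8 wild-type mice of the strain labelled C57BL6J; the methods give young adult males of the C57BL/6NTac substrain. From each mouse, a piece of the median lobe was frozen after the blood had been cleared with a calcium-free EGTA buffer (Liver), and the rest of the organ was then perfused with collagenase, strained and spun at low speed to enrich hepatocytes (Cell Suspension). Every sample was thus perfused, no treatment or allele differed between groups, and only nuclei that went through the hepatocyte enrichment represent the Cell Suspension. Nuclei were tagged with hashtag antibodies, sorted, and run in 6 pools of 4 samples each, so a pool holds several mice and sample types. Sample types were not balanced over the pools. Pools 1 and 6 each held 3 Liver samples and 1 Cell Suspension sample, and pools 3 and 4 held no Liver sample. The endothelial nuclei outside cluster 3 numbered 13 to 119 per Liver sample but only 2 to 13 per Cell Suspension sample.

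Endothelium differs along the liver lobule. Blood enters through the portal vein and the hepatic artery, passes the fenestrated sinusoids, and leaves by the central vein. Endothelium of and around the central vein is known for secreting Wnt ligands and the Wnt amplifier R-spondin 3, which maintain the pericentral program of the neighbouring hepatocytes. Portal vein and arterial endothelium is known for Notch and ephrin signalling, and both kinds of larger vessel store von Willebrand factor, which most sinusoidal cells lack. Sinusoidal cells carry scavenger receptors such as stabilin-2.

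The label of these nuclei held against their markers. In Liver, Pecam1, a junctional adhesion molecule of all endothelium (chromosome 11, 106654217 to 106750628, minus strand, GRCm38), had a median of 811 CPM (counts scaled to a fixed library total) over the cluster 24 samples and 781 over the cluster 26 samples, against 444 in cluster 3. Vwf, which encodes von Willebrand factor (chromosome 6, 125546774 to 125686679, plus strand), ranged from 476 through a median of 1214 to 2448 CPM in cluster 24 and from 520 through 804 to 1246 CPM in cluster 26, and from 1.60 through 5.96 to 13.8 CPM in cluster 3. No cluster 24 or cluster 26 sample was as low as the highest cluster 3 sample. Rspo3, the R-spondin 3 gene (chromosome 10, 29452416 to 29535867, minus strand), separated the 2 clusters: 3315, 4007 and 5516 CPM were the lowest, median and highest samples of cluster 24, against 0, 3 and 10.2 CPM in cluster 26 and 35, 115 and 165 CPM in cluster 3. All values by cluster are from Liver samples with at least 10 nuclei of that cluster, which were 7 for cluster 24, 6 for cluster 26 and 8 for cluster 3. Because the clusters were made from these genes, differences between them are a description and carry no test.

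**Figure D1:**
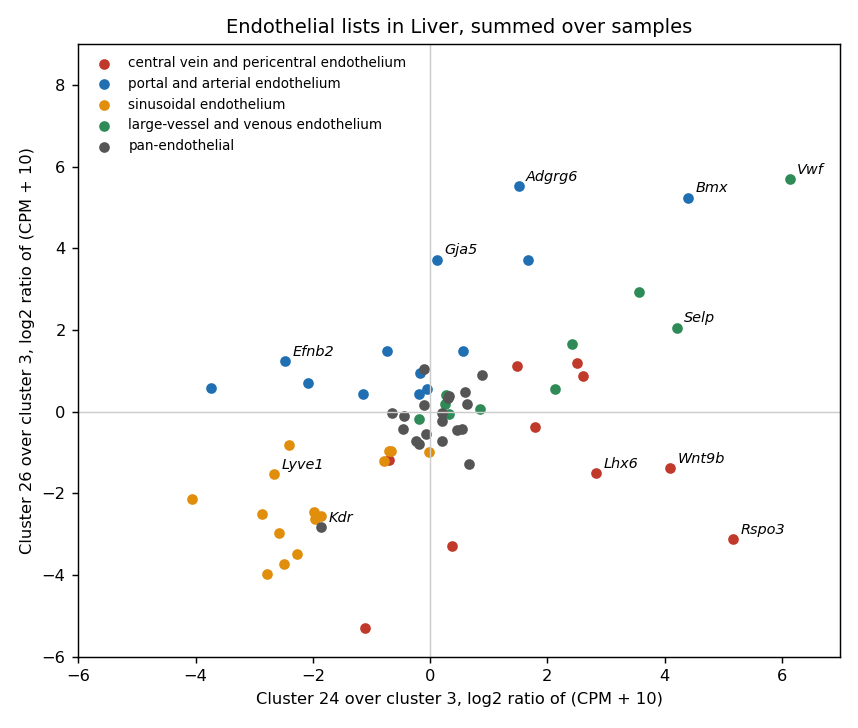
Each point is a gene of a fixed list, plotted by the log2 ratio of CPM + 10 in cluster 24 over cluster 3 (x axis) and in cluster 26 over cluster 3 (y axis), UMIs summed over the Liver samples; colours mark the lists and selected genes are named. Rspo3, Wnt9b and Lhx6 lie to the lower right, Adgrg6, Gja5 and Efnb2 above the horizontal line, Vwf and Selp to the upper right, and the sinusoidal genes to the lower left.

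Cluster 24 was central vein-like. Of the 10 genes of the central vein and pericentral list, 7 were at least 2-fold higher in cluster 24 than in cluster 3 and 1 was at least 2-fold lower, with a median log2 ratio of 2.15 (ratios of CPM + 10 over summed Liver counts); over all 9567 genes of at least 10 CPM in either cluster, 4.51% were at least 2-fold higher and 3.99% lower, with a median of 0.02. Wnt9b, a Wnt ligand, ranged from 196 through 387 to 911 CPM in cluster 24, from 0 through 11 to 27.2 CPM in cluster 3, and was at 0 in every cluster 26 sample. Lhx6, a homeobox transcription factor, had medians of 222 CPM in cluster 24, 28.8 in cluster 3 and 0 in cluster 26. Fabp4, a fatty acid carrier of endothelium, Thbd, the thrombin receptor thrombomodulin, Ptgs1, which encodes cyclooxygenase-1, and the cadherin Cdh13 completed the 7, at 7.41, 4.85, 3.77 and 5.76 times their summed cluster 3 level.

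Wnt2 and Kit of the same list, which are also known from the sinusoid next to the central vein, did not follow. Wnt2, the other pericentral Wnt ligand, had a median of 133 CPM in cluster 24 (56.0 to 355) and 122 CPM in cluster 3 (62.5 to 199), so the clusters overlapped. Kit, a receptor tyrosine kinase, was lower in cluster 24, with 178 CPM (28 to 277) against 374 CPM (328 to 592) in cluster 3, and no sample overlapped. In cluster 26 the medians of Wnt2 and Kit were 2.21 and 0 CPM.

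Cluster 26 was portal and arterial-like. Of 12 list genes at or above 10 CPM there or in cluster 3, 7 were at least 2-fold higher in cluster 26 and 0 were at least 2-fold lower, with a median log2 ratio of 1.23; over all 9717 genes the shares were 4.27% and 4.35%, with a median of 0.07. Adgrg6, an adhesion G protein-coupled receptor (chromosome 10, 14402583 to 14545659, minus strand), ranged from 1695 through 1966 to 2505 CPM in cluster 26 and from 6.16 through 29.4 to 65.6 CPM in cluster 3. Gja5, the arterial gap junction protein connexin 40, had a median of 133 CPM in cluster 26 (49.0 to 204), 0 in cluster 24 and 1.82 in cluster 3. Jag1, a Notch ligand, had 371 CPM in cluster 26 and 19.6 in cluster 3. Efnb2, Ntn4 and Dll4 were less distinct. Efnb2, the arterial ephrin ligand, had a median of 309 CPM in cluster 26 with 138 CPM in cluster 3. Ntn4, a netrin of basement membranes, had 1169 with 443 CPM, and Dll4, a Notch ligand, 69.6 with 39.0 CPM. In cluster 24, Efnb2, Dll4 and the scavenger receptor Msr1 were below every cluster 3 sample, with medians of 16.4, 0 and 28 CPM.

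In cluster 24, 3 genes of the portal and arterial list were at least 2-fold higher and 4 at least 2-fold lower than in cluster 3. Bmx, a kinase of arterial endothelium, had medians of 234 CPM in cluster 24, 384 CPM in cluster 26 and 0.62 CPM in cluster 3. Hey1, an arterial target of Notch, had a median of 0 in every cluster.

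Several large-vessel genes were high in both clusters. Of 7 measured genes of the large-vessel and venous list, 5 were at least 2-fold higher in cluster 24 and 4 in cluster 26. Selp, the P-selectin that is stored together with von Willebrand factor, had medians of 280 CPM in cluster 24 and 52.4 in cluster 26, against 4.48 in cluster 3. Edn1, the vasoconstrictor endothelin-1, had 94.9 and 47.7 CPM, against 0.56. Vcam1, a leukocyte adhesion molecule, was higher in cluster 24 alone, with 168 CPM against 42.2 in cluster 26 and 33.0 in cluster 3. Ackr1 and Sele, markers of postcapillary and inflamed venules, had medians of 0 in both clusters. The basement membrane and matrix list was mixed, with 4 genes at least 2-fold higher and 3 lower of 12 in cluster 24, and 6 higher and 2 lower of 14 in cluster 26. Of its members, Eln, which encodes elastin, and the fibulin genes Fbln2 and Fbln5 had cluster 24 medians of 199, 85.9 and 102 CPM and cluster 26 medians of 250, 207 and 87.2 CPM, while the highest cluster 3 sample of any of the 3 was 14.5 CPM.

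Sinusoidal genes were low in both clusters. Of 16 genes of the sinusoidal list, 12 were at least 2-fold lower and 0 at least 2-fold higher in either cluster, with median log2 ratios of −2.34 and −2.49. Stab2, which encodes stabilin-2 (chromosome 10, 86841198 to 87008025, minus strand), ranged from 3404 to 4648 CPM in cluster 3, from 0 to 140 CPM in cluster 24 and from 65.4 to 255 CPM in cluster 26. Flt4 (the receptor VEGFR3), Mrc1 (the mannose receptor) and Dnase1l3 (a secreted nuclease) had cluster 3 medians of 532, 1534 and 920 CPM, and none of their cluster 24 or cluster 26 samples reached the lowest cluster 3 sample. Gata4, a transcription factor of liver sinusoids, was the exception in cluster 24, with a median of 966 CPM against 821 in cluster 3 and 418 in cluster 26. F8, the coagulation factor VIII gene, was at 1311 and 1052 CPM, against 2077. The pan-endothelial list did not shift as a whole, with 0 of 19 genes at least 2-fold higher and 1 lower in cluster 24, and 1 higher and 2 lower in cluster 26. Within it Kdr, the main VEGF receptor, was 302 and 113 CPM against 874 in cluster 3, and Eng, the TGF-beta co-receptor endoglin, was high in cluster 24 (1660 CPM) and low in cluster 26 (332 CPM) against 910 in cluster 3.

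**Figure D2:**
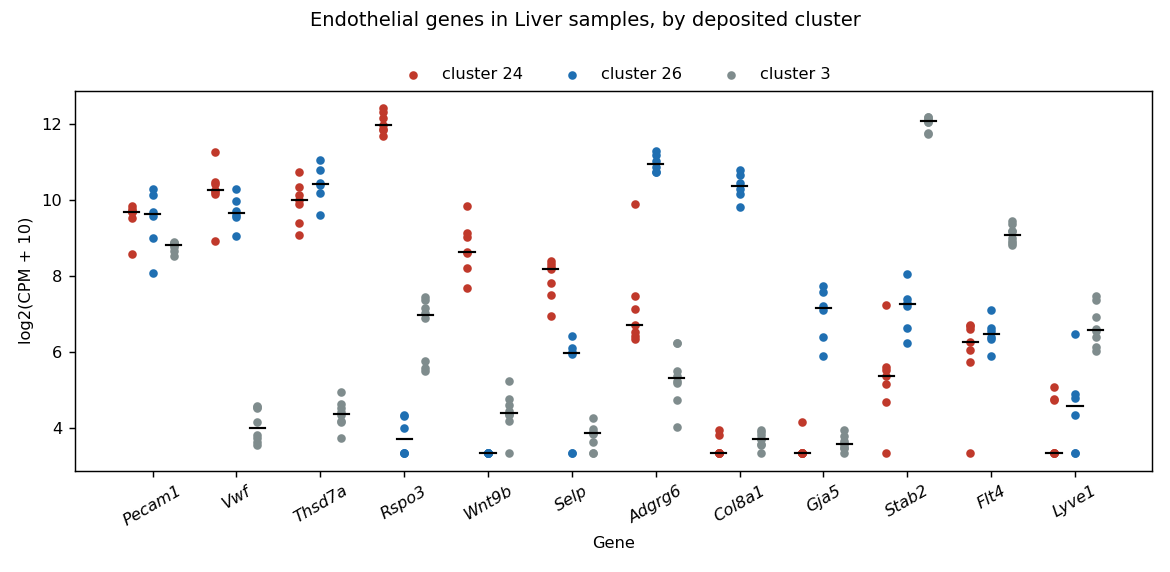
Level of 12 endothelial genes as log2(CPM + 10) in the Liver samples; each point is the UMI sum of 1 sample in cluster 24 (7 samples), cluster 26 (6 samples) or cluster 3 (8 samples), and bars are medians. Vwf and Thsd7a are high in clusters 24 and 26, Rspo3, Wnt9b and Selp in cluster 24, Adgrg6, Col8a1 and Gja5 in cluster 26, and Stab2, Flt4 and Lyve1 in cluster 3.

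The genes with the largest ratio outside the lists give each cluster a profile. By the mean log2 ratio over the 8 Liver samples of both clusters together against cluster 3, Vwf (5.97 ± 0.65, SD), Thsd7a (5.79 ± 0.46), Adamtsl1 (5.57 ± 0.54), Entpd1 (5.31 ± 0.61) and Wdr17 (5.25 ± 1.2) were the 5 highest. Thsd7a, a membrane protein with thrombospondin repeats, had medians of 1008 and 1365 CPM in clusters 24 and 26. Entpd1, the ectonucleotidase CD39 that degrades extracellular ATP and ADP, had 1371 and 426 CPM. Adamtsl1, a secreted matrix protein, belonged to cluster 24, with 1623 CPM against 9.99 in cluster 26 and 9.69 in cluster 3. Rbms3, an RNA-binding protein, had 5621 CPM in cluster 24, 973 in cluster 26 and 135 in cluster 3. Nrg1, the ERBB ligand neuregulin-1, belonged to cluster 26, with 3335 CPM (2631 to 5594) against 35.1 in cluster 24 and 34.8 in cluster 3. Col8a1, a short-chain collagen of vessel walls, had 1324 CPM in cluster 26 (897 to 1748) and a median of 0 in cluster 24. Npr3, the natriuretic peptide clearance receptor, had 708 CPM in cluster 26 and medians of 0 elsewhere. Mecom, a zinc finger transcription factor, had 7615 CPM in cluster 26, 1017 in cluster 24 and 161 in cluster 3.

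Of 13 genes of the angiocrine and zonation list, 6 were at least 2-fold higher and 4 lower than cluster 3 in cluster 24, and 4 were higher and 6 lower in cluster 26. Bmp4, a bone morphogenetic protein, had a median of 185 CPM in cluster 24 (121 to 333), 29.6 in cluster 26 and 1.35 in cluster 3. Bmp2, the sinusoidal ligand that drives hepcidin in hepatocytes, was 28 and 9.99 CPM against 237 CPM in cluster 3, and Bmp6, its partner, 320 and 576 against 996 CPM. Pdgfb, which recruits mural cells, was 42.9 and 51.3 CPM against 12.8. Rspo1 was at 0 in every cluster 24 and cluster 26 sample. Of the Notch and ephrin list, Epha4 had 190 CPM in cluster 24 and 46.2 in cluster 26 against 2.25 in cluster 3, while Efnb1 had 111 CPM in cluster 26 and 7.81 in cluster 24 against 24.4.

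Markers of other cell types were summed in the same samples. The summed smooth muscle and pericyte list had medians of 107 CPM in cluster 24 and 44.4 CPM in cluster 26 over the Liver samples, and the fibroblast list 5.45 and 2.21 CPM. Of the lymphatic list, 0 of 4 measured genes were at least 2-fold higher in either cluster, and 2 were at least 2-fold lower in each. Over all genes 4.51% and 4.27% were higher in clusters 24 and 26, so a count of 0 in 4 says nothing about the list. Its members Flt4 and Lyve1 are also on the sinusoidal list. The mesothelial list had 1 high gene, Gpm6a, a neuronal and mesothelial membrane glycoprotein, at 612 CPM in cluster 24 (427 to 1119), 37.3 in cluster 26 and 8.86 in cluster 3; its defining members Msln, Upk3b and Upk1b were at 0 in every cluster 24 and cluster 26 sample. The hepatocyte list summed to medians of 1953 CPM in cluster 24, 3570 in cluster 26 and 3246 in cluster 3, with Alb in 40.8%, 51.6% and 47.2% of nuclei at equal depth. Over summed Liver counts the hepatocyte list was 2786, 3424 and 3409 CPM in these clusters and 15624 CPM in hepatocyte nuclei.

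The same genes were also counted in single nuclei. The clusters were made from these counts, so the shares here and the list totals below describe the grouping and are no further evidence for it. Every Liver nucleus was thinned to 1000 UMIs, which left out 9 nuclei of cluster 24, 4 of cluster 26 and 148 of cluster 3; median depths before thinning were 3388, 2856 and 3131 UMIs. Of 260 nuclei of cluster 24, 91.9% (95% exact binomial interval 87.9 to 94.9%) had an Rspo3 UMI, against 0 of 217 in cluster 26 (interval up to 1.69%), 4.42% of 1834 in cluster 3 and 0.35% of hepatocyte nuclei, which should lack the gene and had a median of 7740 UMIs before thinning. Without thinning the shares were 98.5%, 1.36%, 6.81% and 1.27%. Adgrg6 was seen in 77.4% of cluster 26 (71.3 to 82.8%), 11.2% of cluster 24, 2.56% of cluster 3 and 0.28% of hepatocytes, and without thinning in 90.5%, 23.8%, 4.64% and 1.41%. In cluster 24, 213 nuclei had Rspo3 alone, 26 both genes, 3 Adgrg6 alone and 18 neither; in cluster 26, 168 had Adgrg6 alone and 49 neither. Intervals cover counting error only.

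By list totals, 258 of 260 thinned nuclei of cluster 24 had more central than portal UMIs, and 161 of 217 of cluster 26 had more portal than central UMIs, with 40 the other way and 16 equal. The medians were 11 central and 1 portal UMI in cluster 24, 2 and 5 in cluster 26, and 1 of each in cluster 3. The sinusoidal list had medians of 3 UMIs in clusters 24 and 26 and 15 UMIs in cluster 3.

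**Figure D3:**
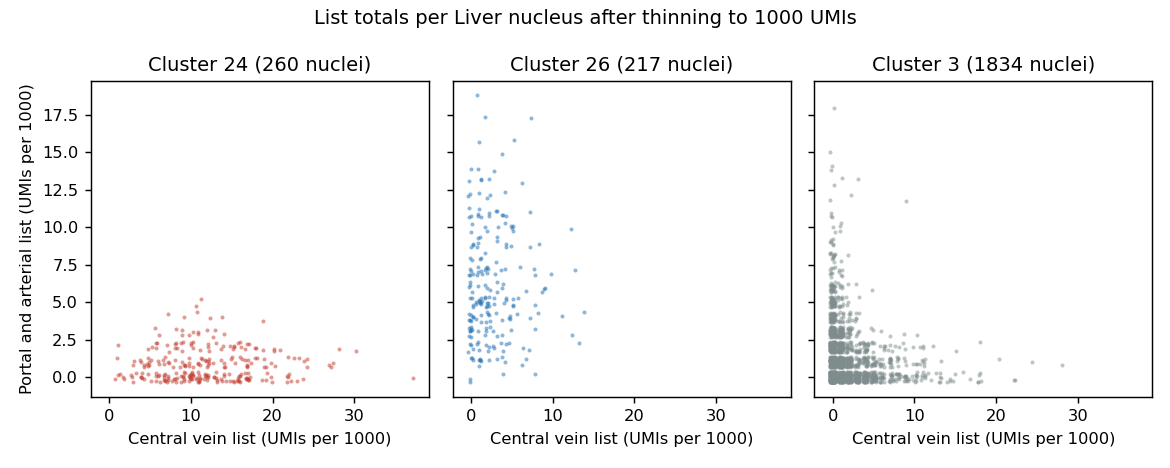
Each point is a Liver nucleus thinned to 1000 UMIs, with its UMIs of the central vein list on the x axis and of the portal and arterial list on the y axis (whole numbers, spread slightly to show overlap, so some points lie just below 0), for cluster 24 (260 nuclei), cluster 26 (217) and cluster 3 (1834). Cluster 24 extends to the right, cluster 26 mainly upward, and cluster 3 holds nuclei along both axes around medians of 1 and 1.

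Within cluster 24, Adgrg6 varied more between mice than Rspo3 did. Adgrg6 was 70.1 to 168 CPM in 6 of the 7 samples of at least 10 nuclei and 939 CPM in the Liver of mouse 6, where 33 UMIs came from 10 nuclei. In that sample Rspo3 was 4611 CPM, and over all 7 samples it ranged from 3315 to 5516 CPM.

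The share of endothelial nuclei that lay outside cluster 3 was lower in Cell Suspension than in Liver. Genes that define these clusters, such as Vwf, Thsd7a and Wdr17, differed between the sample types, so the endothelial nuclei were clustered anew without the 1170 genes that had an unadjusted p under 0.05 between Liver and Cell Suspension. Of 13 new clusters, 2 consisted mostly of these nuclei, 1 with 259 of 271 nuclei from cluster 24 and 1 with 216 of 245 from cluster 26, and both together held 475 of the 548 (86.7%). They made up 16.8 ± 8.86% (SD, n = 8 mice) of endothelial nuclei in Liver and 4.19 ± 1.81% in Cell Suspension, a difference of −12.6 points (exact two-sided permutation p = 0.000155, not paired by mouse, the smallest an unpaired test allows here), lower in 8 of 8 mice. The 2 clusters were picked for holding mostly these nuclei, so this share is not independent of the deposited clusters. By the deposited clusters the shares were 18.1 ± 8.72% in Liver, from 8.18 to 34.0%, and 5.88 ± 2.71% in Cell Suspension, from 2.50 to 11.1% (difference −12.2, exact permutation p = 0.000622, adjusted p = 0.00124 over 4 shares; paired by mouse, exact p = 0.0156, lower in 7 of 8 mice). The ranges overlapped only through the Cell Suspension of mouse 4, with 7 of 63 nuclei.

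Both clusters contributed. Cluster 24 made up 10.1 ± 5.63% of endothelial nuclei in Liver and 2.26 ± 2.05% in Cell Suspension (exact permutation p = 0.000622, adjusted p = 0.00124, lower in 8 of 8 mice). Cluster 26 made up 7.98 ± 4.29% and 3.62 ± 1.89% (exact permutation p = 0.0213, adjusted p = 0.0284, lower in 6 of 8 mice), and paired by mouse this difference did not pass the threshold (exact p = 0.0703). The mean share of cluster 24 among the nuclei outside cluster 3 was 57.2% in Liver and 36.3% in Cell Suspension, a difference that did not pass the test (exact permutation p = 0.0584). Within pools the difference in the combined share was negative in the 4 pools that held both sample types, at −17.3, −3.76, −14.4 and −6.05 percentage points. In each of these 4 pools at least 1 sample type was a single sample, and pools 3 and 4 held no Liver sample. As a share of all nuclei the values were 2.41 ± 1.60% and 0.44 ± 0.29% (exact permutation p = 0.000777). Loss of these nuclei and a change of their RNA that moved them to another cluster cannot be told apart from these counts.

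**Figure D4:**
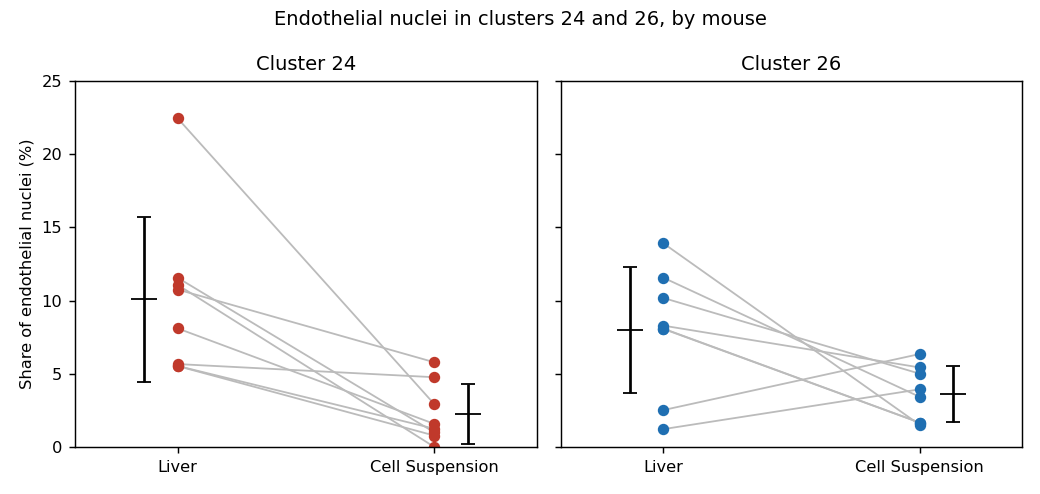
Share of endothelial nuclei in deposited cluster 24 (left) and cluster 26 (right) in percent; each point is a sample, lines join the samples of a mouse, and the bars beside them are mean and SD (n = 8). The share of cluster 24 was lower in Cell Suspension in 8 of 8 mice, that of cluster 26 in 6 of 8.

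The RNA of these nuclei was next compared between Liver and Cell Suspension. Such a comparison cannot tell a change of RNA from a change in which nuclei were recovered. UMIs of these nuclei were summed per sample and compared with edgeR's quasi-likelihood test. With at least 10 nuclei per sample, 8 Liver samples faced 1 Cell Suspension sample, that of mouse 8, which had to be assumed to vary like the Liver samples: 23 of 11053 genes were called, 0.208%, all higher in Cell Suspension (508 at an unadjusted p under 0.05). They included Jun, Jund and Egr1, the fibrinogen gene Fgb and, with the lowest p, Gm42418, a transcript that overlaps ribosomal RNA and was singled out after its values were seen. With at least 5 nuclei, 8 Liver and 7 Cell Suspension samples entered, that of mouse 8 among them, and 201 of 11273 genes were called, 168 higher (1.49%) and 33 lower (0.293%). With the mouse as a replicate block, 109 were called, 85 higher and 24 lower, 105 of them shared. The changes below are from the fit of 8 against 7 samples, which rests on 149780 UMIs in Cell Suspension and 1750107 in Liver, so that 1 UMI stood for 2.07 to 21.5 CPM in a Liver sample and 30.1 to 93.2 CPM in a Cell Suspension sample.

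Early response genes rose. Of 18 genes on the list, 16 could be tested and 15 rose, also with the replicate block, and 7 had every Cell Suspension sample above every Liver sample, which held for 0.142% of all genes. The median log2 change was 4.10, against −0.02 over all genes tested. Fos, an AP-1 transcription factor subunit, was 0, 1.04 and 41.5 CPM (lowest, median, highest) in Liver and 149, 416 and 652 CPM in Cell Suspension, a log2 change of 6.22 ± 0.50 (SE; edgeR adjusted p = 6.50e-16). Its partner Jun was 0, 22.1 and 45.2 CPM in Liver and 334, 1118 and 1876 CPM in Cell Suspension (log2 5.69 ± 0.37, edgeR adjusted p = 3.10e-20). Neither overlapped between the groups. Egr1, a zinc finger factor induced within minutes of stimulation, was 15.6 CPM (0 to 31.7) in Liver and 547 CPM (49.7 to 1234) in Cell Suspension (log2 5.28 ± 0.43, edgeR adjusted p = 7.23e-16). Fosb had 1 UMI in all Liver samples and 74 in Cell Suspension, a ratio of 865 with a 95% counting interval of 150 to 34608. Jund, Junb, Ier2, Atf3 and Zfp36, the last an mRNA decay factor, followed with log2 changes of 5.38, 4.99, 4.93, 4.26 and 3.93, and Gadd45g, a stress response gene outside the list, with 4.74. Dusp1, a MAP kinase phosphatase, and the shear-responsive factor Klf2 rose by 2.76 and 3.43 on the log2 scale. Ier3 was the tested member that did not pass (log2 1.67 ± 0.86, edgeR adjusted p = 0.49).

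Early response genes were also higher in the Cell Suspension in cluster 3 of the same samples: the median of Jun was 32.1 CPM in Liver and 588 CPM in Cell Suspension, that of Fos 10.1 and 252, and that of Egr1 32.6 and 404. The difference in log2 change between the nuclei outside cluster 3 and cluster 3 was positive for 14 of the 18 list genes and negative for 4, with a median of 0.68 against −0.23 over all genes tested, and ranged from 3.14 for Fosb through 1.28 for Egr1, 1.26 for Fos, 0.95 for Jun, 0.28 for Dusp1 and 0.18 for Atf3 to −0.29 for Ier3 and −4.91 for Myc. None was called (6 had an unadjusted p under 0.05, and the lowest edgeR adjusted p was 0.239, for Fosb). The summed list was 174 to 477 CPM in Liver and 1787 to 9476 CPM in the 7 Cell Suspension samples outside cluster 3, and 196 to 380 and 1894 to 5603 CPM in cluster 3.

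Of the 15 genes with the largest ratio over cluster 3 in Liver, 11 fell and 0 rose, 9 with the replicate block (0.293% of all genes fell). These genes were chosen on the same Liver samples that the fall was measured from, so their counts are not independent evidence of a direction. Vwf was 504, 1082 and 1360.0 CPM in Liver and 78.2, 248 and 659 CPM in Cell Suspension (log2 −1.39 ± 0.28, edgeR adjusted p = 0.00102). Thsd7a was 886, 1104 and 1507 CPM in Liver and 0, 391 and 890 CPM in Cell Suspension (log2 −1.2 ± 0.27, edgeR adjusted p = 0.00411). Wdr17, a WD-repeat protein, was 1651 CPM (1116 to 3138) and 508 CPM (78.2 to 2002), Entpd1 912 (398 to 1332) and 231 CPM (0 to 576), and Adamtsl1 994 (572 to 1354) and 49.7 CPM (0 to 1187), with log2 changes of −1.2, −1.57 and −1.54. In cluster 24 alone the changes were smaller and not called, at −0.23 for Thsd7a, −0.75 for Wdr17, −0.70 for Entpd1 and −0.40 for Adamtsl1 (edgeR adjusted p = 0.751 to 0.794), and in cluster 26 alone Thsd7a was −1.25, Wdr17 −0.02 and Entpd1 −2.29, also not called. For Vwf, Thsd7a, Wdr17, Entpd1 and Adamtsl1 the highest Cell Suspension sample was above the lowest Liver sample.

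The 10 largest falls at a mean of at least 50 CPM follow. Pcdh7, a protocadherin, was 637 CPM in Liver (41.8 to 1516) and 0 in 5 of 7 Cell Suspension samples, with a highest value of 412 CPM (log2 −2.89 ± 0.53, edgeR adjusted p = 0.000147). Myrip, which links secretory granules to the actin motor and takes part in von Willebrand factor release, was 477 CPM (252 to 764) and 93.2 CPM (0 to 123), without overlap (log2 −2.44 ± 0.41, edgeR adjusted p = 2.94e-05). Eln was 201 CPM (97.0 to 460) and 49.7 CPM (0 to 93.2), also without overlap (log2 −2.29 ± 0.52, edgeR adjusted p = 0.00377), but with the replicate block its adjusted p was 0.0625. Fndc1, Setbp1 and Mras had log2 changes of −2.88, −2.39 and −2.43. Sulf1, an extracellular sulfatase, Myof, a membrane repair ferlin, D5Ertd615e and Rph3al had 3, 3, 2 and 1 UMIs in all Cell Suspension samples, and were lower than in Liver by a ratio of 14.6 (95% counting interval 4.97 to 71.1), 12.2 (4.16 to 59.6), 14.2 (3.91 to 118) and 13.8 (2.44 to 548). In cluster 24 alone the log2 changes of Sulf1 and Myof were 0.42 and 0.14, neither called. In cluster 26 alone they were −8.56 and −8.08, both called. With no more than 3 UMIs of either gene in Cell Suspension, these 2 values give a direction but no measured size. Mras was lost without mouse 4 (log2 −2.01, edgeR adjusted p = 0.161) and without mouse 8 (log2 −2.17, 0.0966), and Rph3al without mouse 7 (log2 −3.21, 0.0725). On spliced and ambiguous UMIs alone Mras was −0.35 (edgeR adjusted p = 0.906), and on unspliced UMIs alone −4.06 (0.0047).

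The falls were also measured in each cluster alone, since the mean share of cluster 24 was 57.2% of these nuclei in Liver and 36.3% in Cell Suspension (exact permutation p = 0.0584, lower in 6 of 8 mice). The genes were picked for their change in the fit of both clusters, which holds these same nuclei. Counts of the same direction are therefore not independent evidence. Over all genes fitted the median log2 change was −0.28 in cluster 26 and −0.36 in cluster 24. In cluster 26 alone, with 3 Cell Suspension samples of at least 5 nuclei, 18 of the 20 falling genes that were named by a list or rule could be fitted. All 18 had a negative change and 6 were called, among them Vwf (log2 −2.98, edgeR adjusted p = 0.00144) and Pcdh7 (log2 −4.59, 0.000517). Over all 8372 genes fitted in cluster 26, 58 were called, 46 higher and 12 lower. In cluster 24 alone, 2 Cell Suspension samples had at least 5 nuclei. There 17 of 19 falling genes had a negative change, with a median of −0.75, and none was called. Over all 9240 genes fitted in cluster 24, 414 had an unadjusted p under 0.05 and 14 were called, all higher. Vwf was −0.25 in cluster 24. Of the early response rises, Fos (log2 5.05) and Jun (4.32) were called among 11 fitted in cluster 24, and 6 were called among 13 fitted in cluster 26. Egr1 was −3.66 in cluster 24 (edgeR adjusted p = 0.751) and 4.42 in cluster 26, where it was called.

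Rspo3 and the Wnt ligands showed no called change. The central list had 0 of 9 tested genes called, and at shares of 1.49% higher and 0.293% lower over all genes a count of 0 in a list of this size says nothing about the list. Rspo3 was 1271, 2545 and 3274 CPM in Liver and 652, 1092 and 3041 CPM in Cell Suspension over both clusters (log2 −0.55 ± 0.23, edgeR adjusted p = 0.339), and within cluster 24 alone its log2 change was −0.12. Of the thinned cluster 24 nuclei, 21 of 23 from Cell Suspension had an Rspo3 UMI (91.3%, 95% exact interval 72.0 to 98.9%). Wnt9b was 261 and 277 CPM at the median (log2 0.10, edgeR adjusted p = 0.966). Wnt2 had few UMIs in Cell Suspension, with 5, 5 and 1 in cluster 24 of mice 4, 7 and 8 and none in the others. Of the thinned cluster 24 nuclei, 16.5% of 260 in Liver and 3 of 23 in Cell Suspension had a Wnt2 UMI. On the portal side, Adgrg6 had a log2 change of −0.36 (edgeR adjusted p = 0.662) and Jag1 of 0.25, while Bmx fell (279 to 60.2 CPM, log2 −1.62 ± 0.44, edgeR adjusted p = 0.0276; 0.187 with the replicate block, and 0.054 to 0.0966 without mouse 1, 3, 4, 5 or 6). The pan-endothelial list had 0 of 19 and the Notch and ephrin list 0 of 10 called, to be read against the same shares, with Pecam1 at 777 and 667 CPM. A p that misses the threshold does not show that a gene was equal in both groups.

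**Figure D5:**
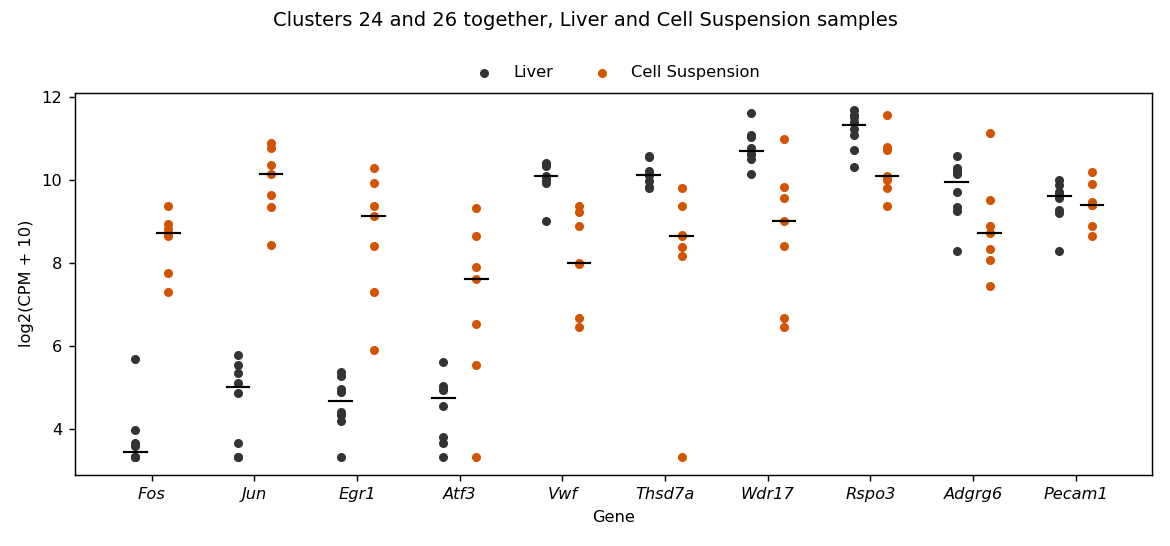
Level of 10 genes as log2(CPM + 10) in the nuclei outside cluster 3, clusters 24 and 26 together; each point is a sample (8 Liver, 7 Cell Suspension with at least 5 nuclei) and bars are medians. Fos and Jun do not overlap between the groups. Vwf, Thsd7a and Wdr17 have lower medians in Cell Suspension but overlap, and Rspo3, Adgrg6 and Pecam1 also overlap.

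Of 16 genes of the sinusoidal list, 3 rose and 0 fell, where 1.49% of all genes rose and 0.293% fell. Stab2 was 85.3 CPM in Liver (41.5 to 107) and 297 CPM in Cell Suspension (99.3 to 1304; log2 2.34 ± 0.36, edgeR adjusted p = 3.94e-06), while cluster 3 had 4342 and 3795 CPM. Bmp2 was 22.0 and 151 CPM (log2 2.57, edgeR adjusted p = 0.00141) and Dnase1l3 68.5 and 271 CPM (log2 1.57, 0.0178). Bmp2 was lost without mouse 1 (log2 1.91, edgeR adjusted p = 0.123), and Dnase1l3 without mouse 4 (1.49, 0.0761) or mouse 6 (1.36, 0.0688). At equal depth, 33.3% of 30 Cell Suspension nuclei of cluster 26 had a Stab2 UMI (95% exact interval 17.3 to 52.8%), against 12.9% of 217 in Liver, while in cluster 24 it was 0 of 23 Cell Suspension nuclei (interval up to 14.8%) and 1.54% of 260 in Liver.

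Hepatocyte genes and measures of RNA quality were examined beside these changes. The summed hepatocyte list was 1517 to 4713 CPM in the Liver samples and 1291 to 10989 CPM in the 7 Cell Suspension samples. It was higher in Cell Suspension than in Liver in mice 4, 5 and 8 and lower in mice 1, 2, 6 and 7. Over UMIs summed across samples, mouse 3 included, the list was 3057 CPM in Liver and 6056 CPM in Cell Suspension. The same sums in cluster 3 were 3409 and 3887 CPM. Hepatocyte-rich genes, of at least 50 CPM in Liver hepatocytes and 5-fold higher there than in these nuclei and cluster 3, numbered 540. Of these, 21 rose (3.89%) and 0 fell, with a median log2 change of 0.63. Over all genes tested 1.49% rose and 0.293% fell, with a median of −0.02. By the same measure in Liver, 57 genes were 5-fold higher in cluster 3 than in these nuclei. Of them 3 rose (5.26%) and 0 fell, with a median of 0.62. Another 138 genes were 5-fold higher in these nuclei than in cluster 3, of which 2 rose and 24 fell (17.4%), with a median of −0.78. These 2 sets were picked on the same Liver samples, so their counts are not independent evidence of a direction. Of the 10 genes of the hepatocyte list, Fgb (log2 1.95), Pck1 (1.88) and Cyp2e1 (1.57) rose. Without mouse 4 they were at log2 1.1 (edgeR adjusted p = 0.11), 0.85 (0.558) and 1.04 (0.527), and Cyp2e1 was also lost without mouse 3, 5 or 6. With the replicate block Cyp2e1 was not called (edgeR adjusted p = 0.678), and its median was 141 CPM in Liver and 82.3 CPM in Cell Suspension. Gm42418 took 0.909 to 1.56% of these nuclei's UMIs in Liver and 1.97 to 7.19% in the 7 Cell Suspension samples, and unspliced UMIs made up 76.0% and 66.9%. The part of hepatocyte RNA, RNA quality and depth in the changes above was not tested.

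Whether the change from Liver to Cell Suspension differed between the nuclei outside cluster 3 and cluster 3 was asked by an interaction term. With at least 10 nuclei per sample in both, where the Cell Suspension was again that of mouse 8 alone and 0% of simulated 4-fold differences were called, the change passed the threshold for a difference in 3 of 15953 genes (0.0188%), which compares that 1 library with the spread of the Liver samples: Adam23, Cd36 and Zdhhc14, with log2 differences of 3.61, 2.44 and 2.69. DESeq2 called 0 genes, with 348 genes at an unadjusted p under 0.05 (edgeR: 549). With at least 5 nuclei, 24 of 16698 genes were called (0.144%), 13 with a higher and 11 with a lower change in the nuclei outside cluster 3, and 13 with the mouse as a replicate block in place of the sample. Adam23 was among the 24, while Cd36 (log2 1.02, edgeR adjusted p = 0.199) and Zdhhc14 were not. Among the called genes at 50 CPM or above, Stab2 (2.35 ± 0.30, edgeR adjusted p = 4.58e-11), Dnase1l3 (1.99), the histidine-degrading enzyme gene Hal (1.81), Adam23 (1.68) and Slc2a13 (1.59) had the largest positive differences. Pcdh7 (−3.22 ± 0.65, edgeR adjusted p = 0.00122), Setbp1 (−3.14), Adamtsl1 (−2.53), Entpd1 (−2.50) and Tox (−2.29) had the largest negative ones. The paper used Hal as a marker of periportal hepatocytes, and the part of hepatocyte RNA in its difference was not tested. In Liver, Stab2 and Dnase1l3 were low and Adamtsl1 and Entpd1 high outside cluster 3, and the clusters were made from such genes. The differences of these genes are therefore not independent of the grouping. The nuclei of clusters 24 and 26 were pooled here, at the mean cluster 24 shares of 57.2% and 36.3% given above, and the term was not fitted within a cluster. In cluster 24 alone the change from Liver to Cell Suspension was −0.81 for Pcdh7, −1.08 for Setbp1, −0.40 for Adamtsl1 and −0.70 for Entpd1, none called. In cluster 26 alone it was −4.59 for Pcdh7 (edgeR adjusted p = 0.000517), and −6.18 for Setbp1 and −2.29 for Entpd1, neither called. Stab2 was 2.09 in cluster 24 (not called) and 2.27 in cluster 26 (edgeR adjusted p = 0.00586), and Dnase1l3 was −0.08 and 2.16 (neither called). In cluster 3, Pcdh7, Setbp1, Adamtsl1 and Entpd1 had medians of 6.50 to 12.6 CPM in Liver and 7.92 to 17.4 CPM in Cell Suspension. At such levels a fall in cluster 3 could hardly be seen. Thinning both kinds of nuclei to the same total left 5 calls.

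The hashtag counts played no part in the clustering, and their difference did not pass the test, which does not show equality. Over the 9 samples with at least 10 nuclei in both, a mean of 35.6 ± 12.8% of hashtag UMIs fell on the assigned tag outside cluster 3 and 34.9 ± 13.1% in cluster 3, a difference of 0.65 percentage points (exact paired permutation test, p = 0.168, higher in 7 of 9 samples).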

How the data were processed

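Nuclei from 24 samples (8 mice, Liver, Cell Suspension and Primary Hepatocytes) were sequenced in 6 pools with 10x 3′ chemistry. According to the methods and the submitters' processing notes, reads were converted with bcl2fastq 2.19.0 and pseudo-aligned by the authors with Salmon Alevin and Alevin-fry to spliced and unspliced GRCm38 transcripts, and the deposited matrices hold raw UMI counts per barcode with spliced, unspliced and ambiguous RNA apart. The deposited table lists the 53467 nuclei the authors kept after hashtag assignment and removal of doublets, with cluster, annotation, hashtag and the assignment margin, a fraction given by the authors; in 53467 of them the matrix UMIs equal the table's. Of the barcode sequences, 337 occur in more than 1 pool, and 8 of the nuclei described share theirs with a nucleus of another pool.

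The 3 RNA states were added per gene. Levels are CPM of UMIs summed per sample and cluster, over samples of at least 10 nuclei. The members, the gene lists and the rules for named genes were chosen with earlier results of these data known. Named genes are members of 22 fixed lists, the 15 highest and 10 lowest mean ratios over cluster 3 in Liver (at least 50 CPM, same sign in every sample), the 8 highest ratios per cluster, the 10 largest called rises and falls, and the 5 largest called interactions in each direction. Counts were tested with edgeR 4.0.16 (quasi-likelihood; genes of at least 10 counts; Benjamini-Hochberg over all genes tested; threshold 0.05), with DESeq2 1.42.0 as an alternative. On simulated data, TMM factors over all genes gave 40.4% false calls, so they were taken from genes of at least 200 CPM. With these, simulated 4-fold rises and falls were called in 96% and 51% of cases with at least 5 nuclei (11271 genes) and in 26% and 2% with at least 10 (10988 genes). For the interaction the shares were 69% and 29% with at least 5 nuclei (16713 genes) and 0% and 0% with at least 10 (15958 genes). In each simulation the 200 changed genes were drawn from genes of at least 50 CPM only. A single fixed dispersion and a single run per setting were used. The shares therefore do not cover genes of lower level.

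Liver and Cell Suspension of a number are the same mouse. The deviations of paired samples from their group means correlated at −0.185 to 0.0892 over 3995 genes (7 mice), and 1 of 7 Cell Suspension samples correlated best with its own mouse's Liver. Shares were compared with exact permutation tests. New clusters were made in scanpy 1.11.5 (2000 variable genes, 30 components, 15 neighbours, resolution 1). Gene positions are from the GENCODE annotation of GRCm38. No sequence carried a result and none is printed.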

Additional observations from a re-analysis of the deposited data

Results flagged for a closer look

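Among 40 groups of 4 to 10 samples examined for a sample far from the others, 5 held one, and chance alone gives about 1 in 20. In Liver, cluster 24 made up 22.4% of endothelial nuclei in mouse 8. In Cell Suspension, the median depth of the nuclei outside cluster 3 was 11133.5 UMIs in mouse 3, which had 2 such nuclei and entered no gene test. In Liver, Vwf was 504 CPM in mouse 1, Dnm3, which encodes a dynamin, was 1684 CPM in mouse 2, and Gm46565, one of the genes lowest against cluster 3, was 83.7 CPM in mouse 2.

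The change from Liver to Cell Suspension differed between the nuclei outside cluster 3 and cluster 3 by an interaction test (edgeR, 8 Liver and 7 Cell Suspension samples, log2 difference of changes) for 10 named genes. Pcdh7 (−3.22), Setbp1 (−3.14), Adamtsl1 (−2.53), Entpd1 (−2.50) and Tox (−2.29) had a lower change outside cluster 3. Nuclei of clusters 24 and 26 were pooled in this test, with a mean cluster 24 share of 57.2% in Liver and 36.3% in Cell Suspension (exact permutation p = 0.0584), and in cluster 24 alone the change from Liver to Cell Suspension was −0.40 for Adamtsl1, −0.70 for Entpd1, −0.81 for Pcdh7 and −1.08 for Setbp1, none called. In cluster 26 alone it was −4.59 for Pcdh7 (edgeR adjusted p = 0.000517), and −6.18 for Setbp1 and −2.29 for Entpd1, neither called. Slc2a13 (1.59), Adam23 (1.68), Hal (1.81), Dnase1l3 (1.99) and Stab2 (2.35) had a higher change outside cluster 3. Hal is a periportal hepatocyte marker in the paper, and the part of hepatocyte RNA in its difference was not tested. Stab2, Dnase1l3, Adamtsl1 and Entpd1 are among the genes that set these nuclei apart from cluster 3 in Liver. Their differences are therefore not independent of the grouping.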

How the results depend on the processing

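The fits with at least 5 nuclei, their alternatives, the scaling with TMM over all genes and the clustering without genes that differ were chosen after seeing the data. The share difference (−12.2) held in direction and call under every alternative run, at −14.3 to −9.97 without each mouse, and the hashtag difference passed the threshold under none of its alternatives (0.206 to 0.924 percentage points). The fit of 23 calls gave 46 without a filter beyond 1 count, 201 with at least 5 nuclei, 6 on spliced and ambiguous UMIs, 11 with pool as a term, and 20 to 25 without 1 mouse. The fit of 201 calls gave 109 with the replicate block, 482 with TMM over all genes (94 higher, 388 lower; median of genes of at least 50 CPM shifted to −0.64), 46 with filterByExpr, 74 after thinning, 88 on unspliced and 62 on spliced and ambiguous UMIs, 14 in cluster 24 and 58 in cluster 26 alone, and 144 to 246 without 1 mouse. The 3 interaction calls became 1 with RLE, 1 with TMM over all genes, 0 with DESeq2, 0 with filterByExpr and 1 after thinning, 2 to 3 without 1 mouse, and 3 with the replicate block; the 24 (13 higher, 11 lower) became 96 with TMM over all genes (4 higher, 92 lower), 12 with filterByExpr, 5 after thinning and 13 with the replicate block. In cluster 24 alone Egr1 (log2 −3.66), Myof (0.14) and Sulf1 (0.42) reversed, none called. Of 386 refits of 20 named genes, 343 kept direction and call, 40 lost the call and 3 reversed. The cause of these moves was not tested. Not possible were, with at least 10 nuclei, the fit with a mouse term, without mouse 8, with at least 20 nuclei or in cluster 24 alone, and the hashtag test in Cell Suspension, which left 1 sample. Depth limits falls: 1 UMI in a Cell Suspension sample was worth 30.1 to 93.2 CPM.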
